A study of Arabidopsis thaliana with 9 samples.

Results

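Leaves of Arabidopsis thaliana exposed to silver nanoparticles were compared directly with leaves exposed to silver ions. The comparison used 6 of the 9 libraries of the series, 3 named AgNPs for the nanoparticles and 3 named Ag+ for the ions, and all 38202 gene rows of the deposited count table. All plants were of the ecotype Columbia, and MS medium, which supplies mineral nutrients, had been their growth medium for 6 days. The remaining 3 libraries are named CK, and these leaves were taken to have had no silver because no other control is named. Its values are given beside the silver groups as a description. The labels state no dose, particle size, coating or length of exposure, so equal silver doses in both forms cannot be assumed. RNA was described as pooled, and whether libraries of the same name stem from separate cultures is not said. Each p-value below is thus set by the spread among libraries, which may be technical.

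Silver ions are toxic to cells because they bind thiol groups and can take the place of copper ions in proteins. In plants they are also known to block ethylene perception by occupying the copper site of the ethylene receptors. Silver nanoparticles are particles of metallic silver that release ions as their surface dissolves, so leaves exposed to them may meet both forms. Metal balance in leaves is read from well-known gene sets, among them ferritins for stored iron, a small family of bHLH transcription factors for iron shortage, and copper enzymes under the control of the microRNA miR398.

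The 6 libraries held 16884010 to 19631828 counts each. Levels are given in CPM, the counts scaled to library size. Leaf genes were abundant, with 40 nuclear photosystem and antenna genes summing to 102800 to 178200 CPM, while 19 root marker genes summed to 75.2 to 192.5 CPM. Library AgNPs 1 stood apart from its group. Its root marker sum was 192.5 CPM against 77.01 and 77.37 in AgNPs 2 and 3 and 75.2 to 105.2 in the Ag+ libraries. Of the principal components of the 6 libraries, the first held 37.6% of the variance and put all Ag+ libraries on the opposite side from all AgNPs libraries, and the second held 30.8% and set AgNPs 1 apart. Mitochondrial transcripts made up 0.0446%, 0.0401% and 0.0142% of the counts in AgNPs 1, 2 and 3 and 0.0104% to 0.0143% in Ag+.

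The test called a small set of genes between the 2 silver forms, which need not be all that differ. Of 19889 genes tested, 136 (0.684%) passed an adjusted p under 0.05 in edgeR's quasi-likelihood test, and these are the genes called below. Of these, 101 (0.508%) were higher in AgNPs and 35 (0.176%) were lower. At least 2-fold differences were called in 85 genes (0.427%) higher and 14 (0.0704%) lower. In all 136 the 3 AgNPs libraries lay wholly above or wholly below the 3 Ag+ libraries. Such a separation was common by itself, since 10.4% of all tested genes lay wholly higher and 11.7% wholly lower in AgNPs. The smallest adjusted p was 0.0175, and 2947 genes (14.8%) had an unadjusted p under 0.05. The biological coefficient of variation was 22.5%.

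The number of calls depended strongly on single libraries. With Ag+ 1, Ag+ 2, Ag+ 3, AgNPs 2 or AgNPs 3 left out in turn, edgeR called 0 genes, with 2374, 2292, 2757, 1907 and 2014 genes at an unadjusted p under 0.05. Without AgNPs 1, the library with the high root marker sum, it called 444 genes, 130 of them among the 136. DESeq2 called 868 genes, including all 136, and limma voom called 47, of which 46 were among the 136. Under each of the 17 refits by another scaling, filter, tool, block or set of libraries, all 136 genes kept their direction and an unadjusted p under 0.05. This outcome was largely set in advance, since the 136 were chosen for small p in these same libraries. Their silver groups also did not overlap, so leaving out 1 library could hardly turn a direction.

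**Figure D1:**
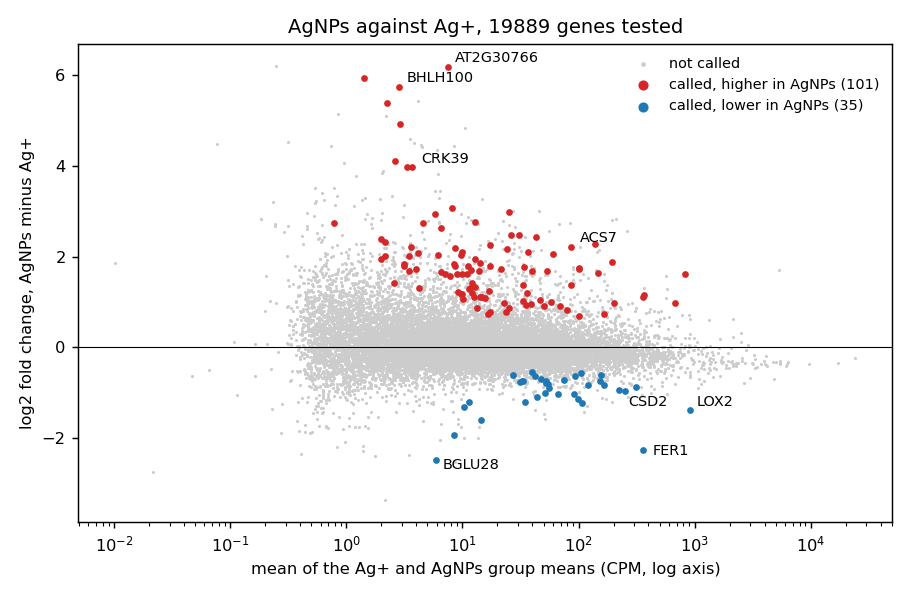
Each point is 1 of the 19889 tested genes, placed by the mean of its Ag+ and AgNPs group means (CPM, log axis) and by its log2 fold change, AgNPs minus Ag+. The 101 genes called higher in AgNPs (red) reach a log2 fold change of 6.20, while the 35 called lower (blue) reach -2.49.

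Iron genes were among the largest differences in both directions. Leaves sense iron shortage through a cascade of bHLH transcription factors. Members of its subgroup Ib, among them BHLH100, BHLH101, bHLH38 and bHLH39, are switched on in shortage and pair with the factor FIT to activate iron uptake. Ferritins are protein shells that store iron, in leaves mainly in plastids, and their transcripts are known to fall when iron is short.

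BHLH100 (AT2G41240) had 52, 215 and 58 counts in the AgNPs libraries against 0, 4 and 1 in Ag+ and 0, 0 and 1 in CK. Its log2 fold change was 5.75 ± 0.84 (SE; adjusted p = 0.035). BHLH101 (AT5G04150) had 44, 150 and 59 counts in AgNPs, 0, 2 and 3 in Ag+ and 0, 0 and 3 in CK. Both were thus nearly silent in leaves with silver ions and in leaves without silver, and present in every nanoparticle library, with AgNPs 2 the highest. The log2 fold change of BHLH101 was 5.39 ± 0.84 (adjusted p = 0.035). For bHLH39 (AT3G56980), 160 counts in the AgNPs group stood against 2 in Ag+, a ratio of 72.8 with a 95% counting interval of 19.8 to 606.5, at an adjusted p of 0.0498. The last member, bHLH38, had 45, 157 and 42 counts in AgNPs and 0, 6 and 0 in Ag+ and just missed the threshold (adjusted p = 0.0512).

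Of the other genes of the iron shortage list, FRO3 (AT1G23020), which encodes a ferric chelate reductase of mitochondria, was called higher. It stood at 20.4, 21.7 and 19.9 CPM in AgNPs and 12.5, 13.4 and 11.5 CPM in Ag+, a log2 fold change of 0.73 ± 0.12 (adjusted p = 0.0414). The AgNPs libraries also lay above the Ag+ libraries for BTS, an E3 ligase that restrains the iron response (log2 fold change 0.70, adjusted p = 0.0512), for OPT3, an iron carrier of the phloem (0.88, adjusted p = 0.108), and for PYE, a bHLH repressor of the response (0.75, adjusted p = 0.265), none of them called. In all, 4 of the 13 tested members were called higher and 0 lower, against 0.508% and 0.176% of all tested genes. Their median log2 fold change was 0.73, and that of all tested genes was -0.01. The summed level of all 17 genes of the list was 479.0, 558.0 and 502.1 CPM in AgNPs, 335.6, 297.5 and 299.0 CPM in Ag+ and 259.6 to 382.7 CPM in CK (exact permutation p = 0.1, the smallest possible). FIT itself, the partner of these factors in roots, had a log2 fold change of 0.48 (adjusted p = 0.626).

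The remaining 4 members of that list were too low to be tested. The root iron transporter IRT1 had 27 counts in AgNPs 1, 2 in AgNPs 2 and 0 in all other libraries, and the ferric reductase FRO2 had 10, 4 and 1 counts in AgNPs and 1, 2 and 1 in Ag+. CYP82C4 had 12, 12 and 0 counts in AgNPs and 0 in all other libraries, and MYB72 had 1, 2 and 2. The IRT1 counts thus lay almost wholly in the library with the high root marker sum, whereas the subgroup Ib bHLH genes were highest in AgNPs 2, whose root marker sum was 77.01 CPM. The part of root tissue in the IRT1 counts was not tested.

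AT2G30766 had the largest log2 fold change of the called genes at a mean of at least 1 CPM, 6.20 ± 0.90 (adjusted p = 0.035). It stood at 13.7, 19.3 and 11.6 CPM in AgNPs, 0, 0.444 and 0.117 CPM in Ag+ and 0.298, 0.398 and 2.404 CPM in CK. RefSeq lists it as an uncharacterized protein. The locus had been entered in the iron shortage list under a name that RefSeq does not hold, was left out for that reason, and is not in the 4 of 13 above. The gene lies at chr2:13107583-13110480 and overlaps AT2G30760 over 639 bases and AT2G30770 over 572 bases on the other strand. Since the strand setting of the counting is not given in the sources used here, reads in these stretches cannot be told apart. Entries AT1G47400 and AT1G47395 of the iron shortage list were left out for their names as well, and neither was called.

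Ferritin transcripts differed in the opposite direction. FER1 (AT5G01600), the main leaf ferritin, stood at 165.2, 98.4 and 106.9 CPM in AgNPs, 744.6, 453.6 and 601.2 CPM in Ag+ and 658.9, 975.4 and 445.2 CPM in CK. Every nanoparticle library was below every ion and every CK library, and the log2 fold change was -2.28 ± 0.33, a level 4.86-fold lower than in Ag+ (adjusted p = 0.035). The level in Ag+ overlapped that in CK. FER1 overlaps a long non-coding RNA, AT5G01595, over 1334 bases on the other strand, with the same limit on counting.

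FER3 and FER4, plastid ferritins as well, gave the same picture. FER3 (AT3G56090) was at 69.6, 60.8 and 60.3 CPM in AgNPs and 168.1, 117.8 and 160.9 CPM in Ag+, a log2 fold change of -1.23 ± 0.21 (adjusted p = 0.0438). FER4 (AT2G40300) was at 57.8, 61.5 and 64.9 CPM in AgNPs and 157.2, 129.6 and 123.5 CPM in Ag+, a log2 fold change of -1.15 ± 0.18 (adjusted p = 0.035). Neither gene's silver groups overlapped. FER2, best known from seeds, had a log2 fold change of -0.95 at 2.03 to 2.56 CPM in AgNPs (adjusted p = 0.0943), and the vacuolar iron transporter-like gene VTL2 one of -1.18 (adjusted p = 0.197). The vacuolar iron transporter-like gene VTL1 and YSL1, a transporter of metal complexes, had log2 fold changes of 0.48 and 0.0092 (adjusted p = 0.772 and 0.992), with overlapping groups. Of the 7 genes of the iron storage list, 3 were called lower and 0 higher, against 0.176% and 0.508% of all tested genes. The summed CPM of the list, most of it from FER1, FER3 and FER4, was 272.6 to 319.9 in AgNPs, 741.7 to 1119 in Ag+ and 764.3 to 1406 in CK, with an exact permutation p of 0.1, the smallest that 3 against 3 libraries allow.

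Other iron proteins were also among the 35 genes lower in AgNPs. NEET (AT5G51720), a protein that carries a cluster of iron and sulfur, was at 33.7, 28.1 and 22.5 CPM in AgNPs and 67.1, 65.1 and 47.8 CPM in Ag+ (log2 fold change -1.10 ± 0.18, adjusted p = 0.035). ENH1 and AT5G51010, which RefSeq describes as rubredoxin proteins, a class that binds iron through cysteines, had log2 fold changes of -0.84 and -0.73 (adjusted p = 0.0479 and 0.0498). Of 22 tested genes whose RefSeq product names a ferritin, a rubredoxin or a similar iron protein, 6 (27.3%) were called lower and 0 higher, against 0.176% and 0.508% of all tested genes. This class was drawn up after the values were seen.

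**Figure D2:**
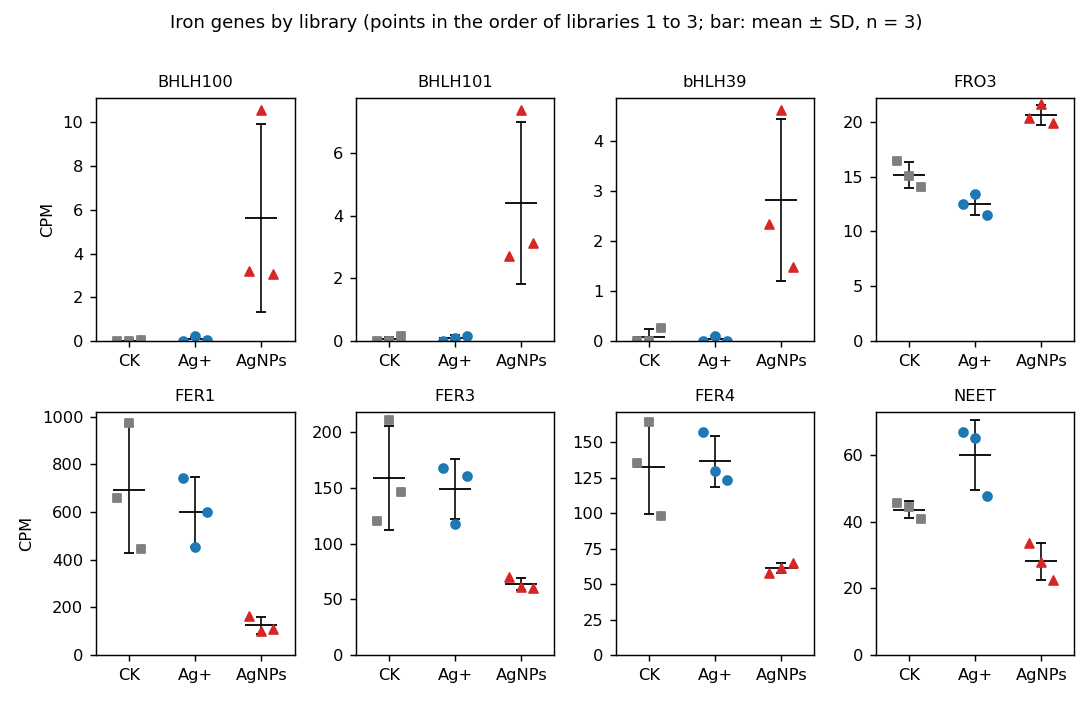
Level in CPM of 8 iron genes in each library, with points in the order of libraries 1 to 3 of a group and bars for the mean ± SD (n = 3). The bHLH genes are near 0 in CK and Ag+ and 1.49 to 10.6 CPM in AgNPs, while the 3 ferritins are 57.8 to 165.2 CPM in AgNPs and at least 98.3 CPM in each library of the other groups.

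The sequences just upstream of these genes are shown because members of both iron groups, which differed in opposite directions, hold the same core motif there. The motif is the G-box, CACGTG, which bHLH and bZIP factors are known to bind and which reads the same on both strands. Within the 250 bases before the annotated start it was found in 4 of the 13 tested iron shortage genes (30.8%) and 2 of the 7 iron storage genes (28.6%), against 7.36% of 19808 tested genes with a window. It was in 3.96% of the windows of genes higher in AgNPs and 8.57% of those lower. The share was also above that of all tested genes in the heat shock list, with 5 of 22 genes (22.7%), so it is not particular to iron genes. The 3 windows below were read 5′ to 3′ on the strand of the gene from the RefSeq genome TAIR10.1, with the G-box in capitals, for a pair of regulators with higher levels in AgNPs, of which bHLH38 missed the threshold, and a ferritin lower in AgNPs. They lie at chr2:17199455-17199704 (BHLH100), chr3:21085246-21085495 (bHLH38) and chr3:20816036-20816285 (FER3), all on the minus strand.
BHLH100: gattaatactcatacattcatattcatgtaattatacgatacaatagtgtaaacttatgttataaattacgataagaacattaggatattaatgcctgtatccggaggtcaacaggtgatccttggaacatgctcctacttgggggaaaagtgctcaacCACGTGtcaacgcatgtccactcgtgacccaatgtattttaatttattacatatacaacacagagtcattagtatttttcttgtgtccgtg
bHLH38: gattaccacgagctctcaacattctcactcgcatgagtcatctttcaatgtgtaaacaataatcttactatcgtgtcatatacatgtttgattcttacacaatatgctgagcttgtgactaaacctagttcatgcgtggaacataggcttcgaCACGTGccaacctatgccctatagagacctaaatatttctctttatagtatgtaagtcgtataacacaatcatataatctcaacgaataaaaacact
FER3: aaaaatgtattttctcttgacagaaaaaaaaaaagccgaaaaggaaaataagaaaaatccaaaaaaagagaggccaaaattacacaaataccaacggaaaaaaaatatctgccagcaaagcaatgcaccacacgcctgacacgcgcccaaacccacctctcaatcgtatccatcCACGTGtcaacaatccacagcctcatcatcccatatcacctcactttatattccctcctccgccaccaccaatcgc
The first base of the G-box lay 91, 97 and 76 bases before the start of BHLH100, bHLH38 and FER3. No G-box was found in the windows of BHLH101, bHLH39, FRO3, FER1 and AT2G30766. A match describes the letters and does not show binding.

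The copper enzymes under miR398 formed a smaller group, lower in AgNPs than in Ag+ but above CK in both. CSD1 and CSD2 are the copper and zinc superoxide dismutases of the cytosol and the plastid, and CCS is the chaperone that loads them with copper. In copper shortage, miR398 is known to direct the cleavage of their transcripts, and the iron superoxide dismutase FSD1 takes over in plastids.

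CSD2 (AT2G28190) stood at 149.4, 163.4 and 139.8 CPM in AgNPs, 357.3, 235.2 and 282.4 CPM in Ag+ and 34.3, 31.1 and 31.2 CPM in CK. The nanoparticle libraries thus lay between the other groups without overlap, with a log2 fold change against Ag+ of -0.95 ± 0.15 (adjusted p = 0.035). CSD1 (AT1G08830) followed the same order, with 118.3, 125.0 and 99.3 CPM in AgNPs, 206.2, 178.0 and 190.0 CPM in Ag+ and 30.9 to 40.7 CPM in CK (log2 fold change -0.75 ± 0.14, adjusted p = 0.0475). CCS (AT1G12520) had 44.1, 38.1 and 35.2 CPM in AgNPs, 86.9, 57.3 and 73.7 CPM in Ag+ and 16.1 to 19.3 CPM in CK (log2 fold change -0.89 ± 0.16, adjusted p = 0.0479). CSD1 overlaps AT1G08840 over 211 bases on the other strand.

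The sequences of miR398 and of its best ungapped match in each of the 3 transcripts are given because they are the element these genes are known to share. Mature miR398b-3p and miR398c-3p were identical in RefSeq (chr5:4691107-4691127 and chr5:4694778-4694798, plus strand, TAIR10.1), and the capitals mark the seed, bases 2 to 8. In the transcripts, capitals mark letters that form an A-U or G-C pair with the microRNA, which runs antiparallel. Letters in G-U pairs stand in lower case.
miR398b-3p: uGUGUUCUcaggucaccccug
CSD1: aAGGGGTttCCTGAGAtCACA
CSD2: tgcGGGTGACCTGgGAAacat
CCS: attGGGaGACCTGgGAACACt
The CSD1 match lies upstream of the start codon at chr1:2827177-2827685 on the plus strand, spans an intron and pairs at 17 of 21 positions. The CSD2 match (chr2:12015572-12015592, plus strand) and the CCS match (chr1:4267521-4267541, minus strand) lie in coding sequence. By the capitals they pair at 13 and 15 positions, with 3 and 1 further G-U pairs. Counting a G-U pair as 0.5, only 6 of 19114 transcripts held an ungapped match at least as good as that of CSD1, but 322 did so for CCS and 2501 for CSD2, so without gaps the latter sites do not stand out.

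The miR398 precursors themselves were low. The MIR398b transcript was at 1.43 to 2.09 CPM in AgNPs, 0.914 to 1.83 CPM in Ag+ and 2.63 to 3.27 CPM in CK (log2 fold change 0.50 ± 0.33, adjusted p = 0.522), and MIR398c was below 1 CPM in every library (-0.55 ± 0.70, adjusted p = 0.749). All 116 bases of the MIR398b gene lie over AT5G14550 on the other strand, so its counts may belong to that gene. These libraries measure long RNA, so mature miR398 was not measured. FSD1 (AT4G25100) was at 633.2, 564.4 and 604.3 CPM in AgNPs and 648.9, 766.7 and 590.0 CPM in Ag+, overlapping groups with a log2 fold change of -0.15 ± 0.14 (adjusted p = 0.641), both below the 1105 to 1420 CPM of CK. COPT2, a copper importer of the plasma membrane, was at 2.09, 1.62 and 1.33 CPM in AgNPs, 1.11, 0.833 and 0.703 CPM in Ag+ and 3.42 to 4.25 CPM in CK (log2 fold change 0.93 ± 0.30, adjusted p = 0.196).

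Over the whole copper list, 3 of 31 tested members were called lower and 0 higher, against 0.176% and 0.508% of all tested genes, with a median log2 fold change of -0.08. The called members were CSD1, CSD2 and CCS. The third superoxide dismutase of this type, the peroxisomal CSD3, had a log2 fold change of 0.07 (adjusted p = 0.836). The copper ATPase PAA2 of the thylakoid (-0.65, adjusted p = 0.102) and the metal-nicotianamine transporter YSL2 (0.93, adjusted p = 0.078) had groups that did not overlap but were not called. ARPN, also of the list, was not called in the main fit (adjusted p = 0.0673). Its log2 fold change ran from -2.41 to -1.52 over the 17 refits.

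Kinase genes were a visible share of the genes higher in AgNPs. Plant cells perceive microbes and damage through receptor-like kinases at the plasma membrane, with calcium entry and mitogen-activated kinase cascades downstream and the exocyst complex delivering secreted material to the membrane. A class of protein kinases and receptor-like kinases was drawn by RefSeq product name. Of its 704 tested genes, 16 (2.27%) were called higher in AgNPs and 0 lower, against 0.508% and 0.176% of all tested genes. They were 15.8% of the 101 higher genes and 3.54% of all tested genes. AT5G21940, whose product name holds a histidine kinase, was not in this class and was called lower (log2 fold change -1.02, adjusted p = 0.0362). The kinase class and the calcium class below were drawn up after the values were seen.

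CRK39 (AT4G04540), a cysteine-rich receptor-like kinase, had the largest fold of the kinase genes called higher. It stood at 4.67, 8.42 and 7.73 CPM in AgNPs, 0.457, 0.278 and 0.586 CPM in Ag+ and 6.004, 1.94 and 3.99 CPM in CK, a log2 fold change of 3.97 ± 0.49 (adjusted p = 0.0212). The Ag+ libraries were thus below both other groups, which overlapped. MAPKKK15 (AT5G55090), a kinase at the head of a mitogen-activated cascade, was at 3.997, 9.99 and 9.86 CPM in AgNPs, 1.04, 1.44 and 1.06 CPM in Ag+ and 2.05 to 6.80 CPM in CK (log2 fold change 2.74 ± 0.50, adjusted p = 0.0498). CERK1, the receptor for fungal chitin, was at 46.3, 53.9 and 54.4 CPM in AgNPs, 25.3, 27.9 and 26.1 CPM in Ag+ and 40.0 to 56.0 CPM in CK (log2 fold change 0.96 ± 0.15, adjusted p = 0.035). The lectin receptor kinases LECRKA4.1, HLECRK and RLK had log2 fold changes of 2.48, 1.78 and 1.63, and CRK5 and CRK12 of 1.69 and 1.80.

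EXO70H1 (AT3G55150) and EXO70H2 (AT2G39380), subunits of the exocyst, showed the same order of groups. EXO70H1 was at 4.24, 8.32 and 6.39 CPM in AgNPs, 0.196, 0.444 and 0.528 CPM in Ag+ and 1.65 to 8.95 CPM in CK (log2 fold change 3.98 ± 0.66, adjusted p = 0.0438). EXO70H2 was at 9.47, 12.0 and 9.22 CPM in AgNPs, 1.89, 1.00 and 1.11 CPM in Ag+ and 4.27 to 13.4 CPM in CK (2.94 ± 0.44, adjusted p = 0.035), but lies with 2078 bases over AT2G39375 on the other strand. AT3G07195, of the family of the immune regulator RIN4, was at 50.3, 42.7 and 40.7 CPM in AgNPs and 7.96, 4.89 and 4.103 CPM in Ag+ (2.98 ± 0.51, adjusted p = 0.0465).

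A class of calcium-binding proteins, calcium pumps and calmodulins was also drawn by product name. Of its 215 tested genes, 4 (1.86%) were called higher and 0 lower, against 0.508% and 0.176% of all tested genes. CP1, a calcium-binding protein, was at 110.5, 186.6 and 165.7 CPM in AgNPs, 49.0, 43.3 and 48.7 CPM in Ag+ and 75.5 to 134.8 CPM in CK (log2 fold change 1.72 ± 0.24, adjusted p = 0.035). The calcium pump ACA2 and the calcium sensor CAM2 had log2 fold changes of 1.00 and 0.90 (adjusted p = 0.035 and 0.0362). Other called genes of known type, also picked after their values were seen, were the cyclic nucleotide gated channel CNGC3 (2.03), the transcription factor WRKY27 (2.1009), the membrane proteins MLO3 and MLO6 (1.61 and 2.02), and GAD4, which makes the signal molecule GABA from glutamate (2.25, adjusted p = 0.0175).

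The W-box, TTGACC or TTGACT on either strand, is the core element bound by WRKY factors, which act in these pathways. It was found within 250 bases upstream of 51 of the 101 genes higher in AgNPs (50.5%) and 13 of the 35 lower (37.1%), against 28.3% of all tested genes. These shares describe the windows and show no binding.

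**Figure D3:**
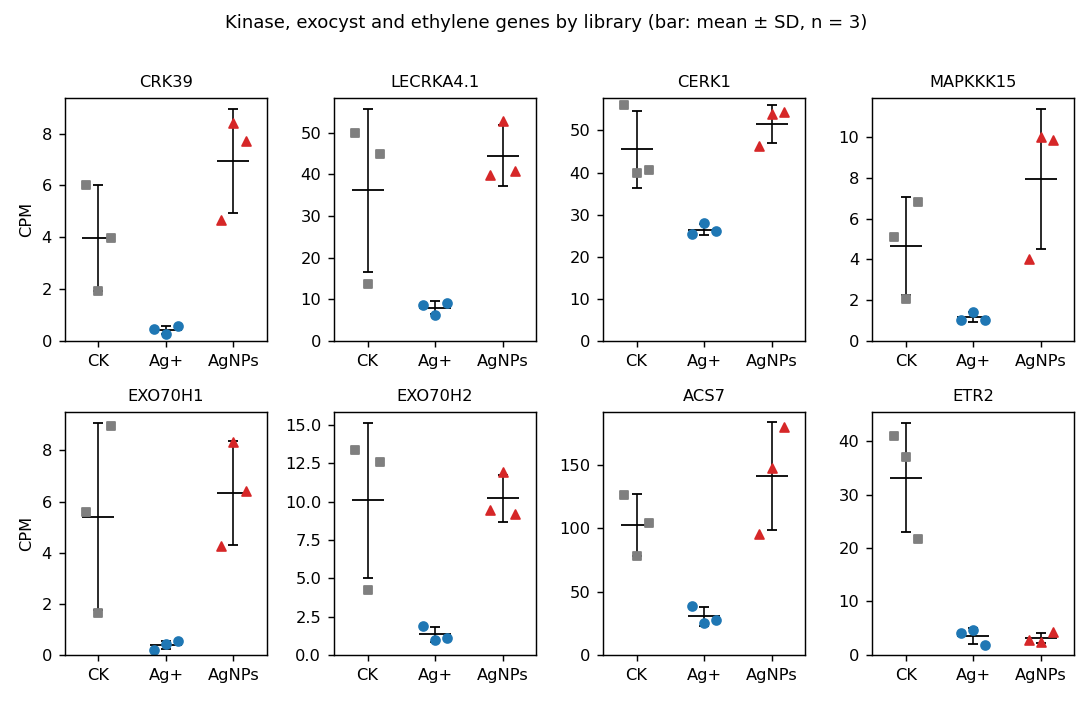
Level in CPM of 8 kinase, exocyst and ethylene genes in each library, with points in the order of libraries 1 to 3 and bars for the mean ± SD (n = 3). In the first 7 genes the Ag+ libraries lie below all AgNPs and all CK libraries, while the receptor gene ETR2 is at 1.88 to 4.67 CPM in both silver groups and 21.6 to 40.9 CPM in CK.

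The order of the 3 groups differed between the directions. Of the 101 genes higher in AgNPs, the mean was lowest in Ag+ in 99 (98%) and highest in AgNPs in 91 of them, against 34.3% and 31.3% of all tested genes. The AgNPs mean was nearer to CK than the Ag+ mean was in 70 of them (69.3%), against 52.8% of all tested genes. Of the 35 genes lower in AgNPs, Ag+ had the highest mean in 27 (77.1%) and AgNPs the lowest in 22 (62.9%), against 34.7% and 33.4% of all tested genes, and the AgNPs mean was nearer to CK in 18 (51.4%). The choice of genes by AgNPs against Ag+ largely sets these shares, since a gene higher in AgNPs cannot have its top mean in Ag+.

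Ethylene genes were of interest because silver ions block the receptors. Only the synthesis gene ACS7 was called among 31 tested members of the ethylene list, and the median log2 fold change was 0.21. ACS7 (AT4G26200) encodes an enzyme that makes ACC, the precursor of ethylene. It stood at 95.4, 147.6 and 179.8 CPM in AgNPs, 38.7, 25.1 and 27.4 CPM in Ag+ and 77.7 to 126.2 CPM in CK, so that the Ag+ libraries were below both other groups. Its log2 fold change was 2.21 ± 0.28 (adjusted p = 0.0225).

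None of the receptor and response genes ETR2, ERS1, ERS2, EBF2, ARGOS and NAC6 was called, and the silver groups overlapped for each of them except ERS2, which lay lower in all AgNPs libraries. ETR2, whose transcript is known to rise with ethylene, was at 2.83, 2.41 and 4.26 CPM in AgNPs, 4.11, 4.67 and 1.88 CPM in Ag+ and 21.6 to 40.9 CPM in CK (log2 fold change -0.16 ± 0.38, adjusted p = 0.874). EBF2, which removes the ethylene transcription factor EIN3, was at 21.2 to 22.6 CPM in AgNPs, 17.82 to 21.89 CPM in Ag+ and 63.0 to 107.2 CPM in CK (0.09 ± 0.19, adjusted p = 0.848). The receptor ERS1 had a log2 fold change of 0.04 ± 0.16 and the receptor ERS2 of -0.44 ± 0.37, the organ size gene ARGOS of 0.91 ± 0.56 and the senescence factor NAC6 of -0.11 ± 0.86, with adjusted p from 0.487 to 0.966. These tests do not show equal levels, since the error on ETR2, ARGOS, ERS2 and NAC6 leaves room for differences of the size called elsewhere.

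Genes of jasmonate, salicylate and sulfur metabolism gave single calls. LOX2 (AT3G45140), the plastid lipoxygenase at the start of jasmonate synthesis, was at 488.3, 506.7 and 509.0 CPM in AgNPs, 1685, 892.2 and 1377 CPM in Ag+ and 202.1 to 282.3 CPM in CK. The nanoparticle libraries lay between the other groups, with a log2 fold change of -1.39 ± 0.22 (adjusted p = 0.035). It was the only called member of the 22 tested jasmonate genes, whose median was 0.09. The allene oxide cyclase genes differed in direction without being called, with a log2 fold change of -0.86 for AOC2 (adjusted p = 0.0554) and 1.82 for AOC3 (adjusted p = 0.0516). These are close copies, so reads may have been split between them by the authors' counting. The storage protein gene VSP2, a jasmonate marker, was at 25.3 to 29.2 CPM in AgNPs and 36.0 to 53.1 CPM in Ag+ (-0.78 ± 0.32, adjusted p = 0.296).

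Of 22 tested salicylate genes, 1 was called in each direction. EDS5 (AT4G39030), the plastid exporter needed for salicylate synthesis, was at 13.96, 13.48 and 13.69 CPM in AgNPs, 6.59, 4.33 and 7.21 CPM in Ag+ and 9.618 to 13.96 CPM in CK (log2 fold change 1.18 ± 0.21, adjusted p = 0.0452). LURP1 (AT2G14560), a late defence gene that responds to salicylate, was at 7.32, 6.003 and 8.21 CPM in AgNPs, 29.0, 21.3 and 15.6 CPM in Ag+ and 0.854 to 1.49 CPM in CK (-1.61 ± 0.26, adjusted p = 0.035). The synthesis and the response gene thus differed in opposite directions. The classic salicylate marker PR1 was below 3 CPM in every library, with a log2 fold change of -1.75 ± 0.66 (adjusted p = 0.261).

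BGLU28 (AT2G44460), a glucosidase gene known as a marker of sulfur shortage, had the largest negative log2 fold change of all called genes, -2.49 ± 0.39 (adjusted p = 0.035). It was at 3.01, 0.935 and 1.44 CPM in AgNPs, 11.1, 9.11 and 9.67 CPM in Ag+ and 0.256 to 0.626 CPM in CK. It was the only call among 17 tested sulfur genes, which had a median of -0.38. Other sulfur shortage markers had groups that did not overlap but were not called, with a log2 fold change of -2.01 for GGCT2;1, which breaks down glutathione (adjusted p = 0.0554), and -1.77 for SDI1, a repressor of glucosinolate synthesis (adjusted p = 0.0913).

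**Figure D4:**
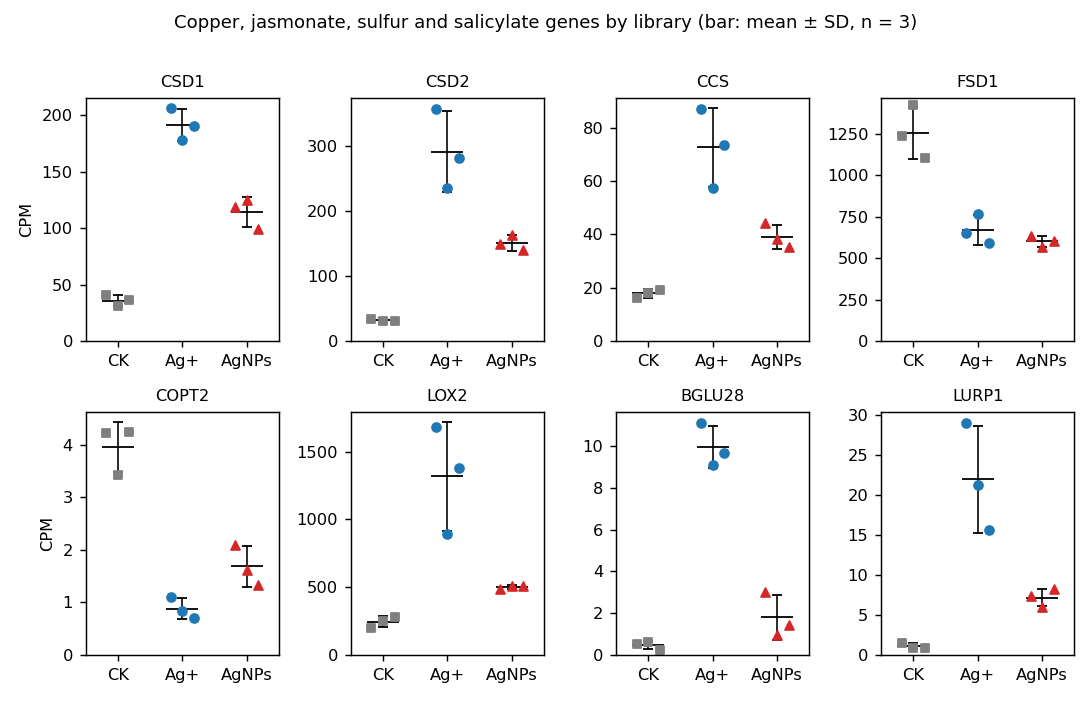
Level in CPM of 8 copper, jasmonate, sulfur and salicylate genes in each library, with points in the order of libraries 1 to 3 and bars for the mean ± SD (n = 3). CSD1, CSD2, CCS, LOX2, BGLU28 and LURP1 have their highest levels in Ag+, intermediate levels in AgNPs and their lowest in CK, while FSD1 is at 564.4 to 766.7 CPM in both silver groups.

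Heat shock genes had the highest median of the 35 lists, 2.22, but only 1 of 22 tested members was called. That was HSFA7A (AT3G51910), a heat shock transcription factor, at 15.99, 10.97 and 14.55 CPM in AgNPs and 5.68, 6.67 and 7.39 CPM in Ag+ (log2 fold change 1.07 ± 0.20, adjusted p = 0.0498), with 14.2 to 20.3 CPM in CK. The summed CPM of the list was 652.2, 1701 and 2154 in AgNPs, 351.1, 273.4 and 554.7 in Ag+ and 357.9, 346.2 and 1513 in CK. All nanoparticle libraries thus lay above all ion libraries, by amounts that differed widely within each group, and CK 3 lay within the range of the nanoparticle libraries. The exact permutation p of the sum was 0.1, the smallest that the design allows.

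The single chaperones showed the same spread. HSP101, which pulls apart protein aggregates, was at 30.0, 62.7 and 82.8 CPM in AgNPs, 7.96, 6.33 and 18.17 CPM in Ag+ and 11.7, 12.2 and 66.2 CPM in CK (log2 fold change 2.43 ± 0.75, adjusted p = 0.187). HSP70 (AT3G12580) had a log2 fold change of 2.57 ± 0.99 and the factor HSFA2 of 2.78 ± 1.07 (adjusted p = 0.274 and 0.270). HSP17.6A had the highest value of the list, 4.44 ± 0.88 (adjusted p = 0.0608), with 5.04, 20.8 and 22.8 CPM in AgNPs and 0.556 to 1.04 CPM in Ag+. Library CK 3 was again far above the other CK libraries for HSP101.

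AOX1A (AT3G22370), the alternative oxidase of mitochondria and a marker of mitochondrial stress, was called higher in AgNPs. It stood at 101.7, 101.6 and 101.7 CPM in AgNPs, 63.1, 57.9 and 51.1 CPM in Ag+ and 56.2 to 65.7 CPM in CK (log2 fold change 0.83 ± 0.12, adjusted p = 0.0348). It was the only call in the list of 19 early oxidative and mitochondrial stress genes, all of which had a positive log2 fold change, with a median of 0.93. The summed level of the list was 2631, 1272 and 1346 CPM in AgNPs and 1334, 1335 and 779.1 CPM in Ag+, overlapping groups with AgNPs 1 far above the rest (exact permutation p = 0.4). The stress regulators WRKY53 and WRKY33 had log2 fold changes of 1.61 each without being called (adjusted p = 0.179 and 0.396).

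Photosynthesis genes had small negative log2 fold changes that did not pass the test. All 40 photosystem and antenna genes and all 14 Rubisco and Calvin cycle genes had a negative log2 fold change, with medians of -0.36 and -0.42, and 0 were called. Of all tested genes, 48.2% had a positive log2 fold change. At an unadjusted p under 0.05 there were 3 of the 40 and 9 of the 14. The summed photosystem and antenna genes were at 102800 to 156400 CPM in AgNPs, 127500 to 178200 in Ag+ and 54080 to 85510 in CK. Both silver groups thus lay above CK. The summed Rubisco and Calvin cycle genes were at 31760 to 40710 CPM in AgNPs, 41130 to 50480 in Ag+ and 36100 to 47710 in CK, where CK overlapped both silver groups. The antenna gene LHCB6 was at 3186, 2201 and 1833 CPM in AgNPs and 3093, 3537 and 2538 CPM in Ag+ (-0.34 ± 0.25, adjusted p = 0.552), and CAB3 behaved alike (-0.34 ± 0.29, adjusted p = 0.609). CK stood at 770 to 1301 CPM for LHCB6 and 1093 to 2254 CPM for CAB3, below all silver libraries. The silver groups overlapped for both genes, and AgNPs 1 was the highest of its group. CAB3 has near-identical copies and LHCB6 overlaps a long non-coding RNA, so both values are uncertain.

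**Figure D5:**
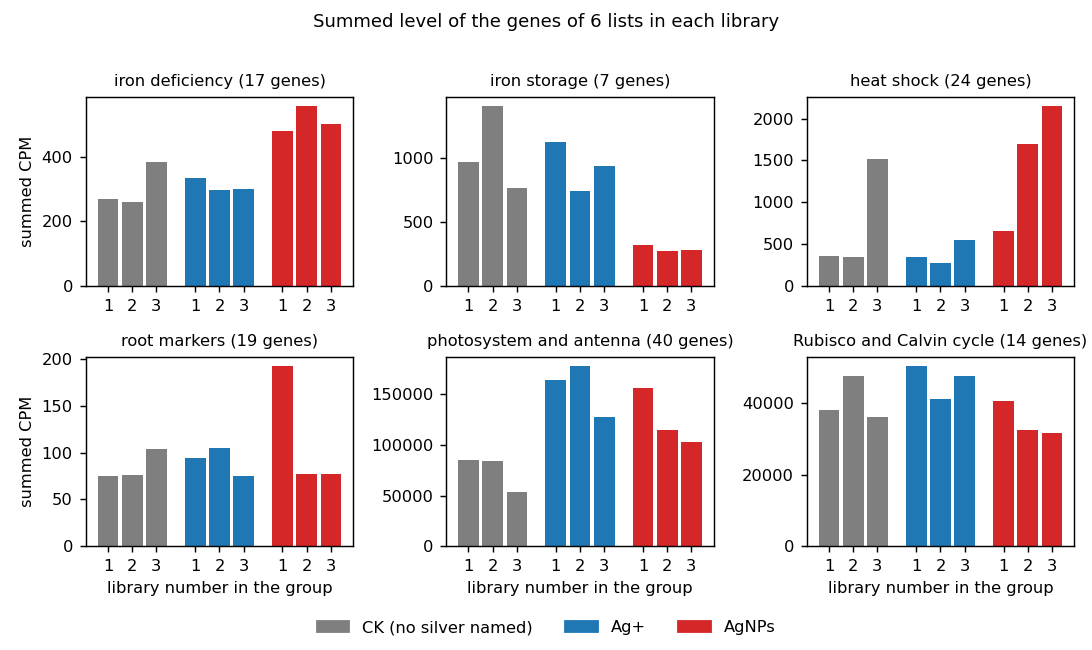
Summed level in CPM of the genes of 6 lists in each of the 9 libraries, with 1 bar per library and an axis that starts at 0. Iron storage falls below 320 CPM in the AgNPs libraries only, heat shock ranges from 652.2 to 2154 CPM in AgNPs, and the root marker sum is high in AgNPs 1 alone.

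Among further genes fixed by the rule, the cold and drought genes COR15A and KIN2, the anthocyanin gene DFR and the phosphate starvation RNA IPS1 were not called, with log2 fold changes of -0.48 ± 0.50, -0.15 ± 0.19, -0.78 ± 0.26 and 0.33 ± 0.32. The lists for endoplasmic reticulum chaperones, antioxidant enzymes, glutathione transferases, metallothioneins, both kinds of glucosinolates, chlorophyll, light stress, flavonoids, abscisic acid, low oxygen, carbon shortage, phosphate, nitrate, the clock, auxin, cell walls, aquaporins, cell division, DNA damage and senescence had 0 called members each. Root markers (15 tested), seed storage genes (3 tested) and markers of leaf cell layers (10 tested) also had 0 calls. Their medians were 0.86, -0.71 and -0.07. A list without a call could still lean one way. The log2 fold change was positive in 13 of 13 endoplasmic reticulum chaperone genes (median 0.57) and 0 of 17 aquaporin genes (-0.42). It was positive in 1 of 18 chlorophyll genes (-0.24) and 2 of 12 carbon shortage genes (-0.71), against 48.2% of all tested genes. An unadjusted p under 0.05 was found for 3, 7, 4 and 6 genes of these lists, against 14.8% of all tested genes.

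The rest of the genes chosen for their size had no list. SDR5 (AT2G47140), a short-chain dehydrogenase, was at 17.1, 14.7 and 11.7 CPM in AgNPs, 1.63, 1.39 and 2.11 CPM in Ag+ and 3.98 to 14.3 CPM in CK (log2 fold change 3.08 ± 0.44, adjusted p = 0.035). SHB1, of the EXS family, had a log2 fold change of 2.62, and the uncharacterized genes AT1G59865, AT2G14247, AT1G49000 and AT5G22530 had 4.93, 4.11, 2.76 and 2.74. On the lower side, AT5G38940, of the cupin family, was at 9.47, 5.46 and 5.81 CPM in AgNPs, 17.2, 14.2 and 16.7 CPM in Ag+ and 28.2 to 36.1 CPM in CK (-1.22 ± 0.21, adjusted p = 0.0438). It is an example in which both silver groups lay below CK and the nanoparticle group lay lowest. The F-box gene AT3G23880 was at 6.03, 6.003 and 5.86 CPM in AgNPs and 14.8, 14.4 and 15.4 CPM in Ag+ (-1.32 ± 0.15, adjusted p = 0.0198). The copper amine oxidase gene AT3G43670 had -1.04, and AT5G35777, AT3G07350, AT5G21940, AT4G22513 and AT2G20670 had -1.93, -1.21, -1.02, -1.01 and -0.96. AT4G22513 overlaps AT4G22510 over 631 bases on the other strand.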

How the data were processed

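TRIzol extracts of leaves, freed of ribosomal RNA, were sequenced as paired reads in a single Illumina lane, per the labels' protocols, so no batch could be told apart. HISAT2 and the build TAIR10 are named, per the submitters' processing notes. How reads were assigned to genes (tool, strand setting, annotation) was not given in the sources used here. Values are unnormalized gene counts deposited by the authors, whole numbers in a table of 9 library columns. Of the rows, 11452 were at 0 in all 9 libraries. RefSeq names (TAIR10.1) matched 37751 identifiers.

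All 9 libraries entered 1 fit of edgeR 4.0.16 (R 4.3.3; filterByExpr, TMM, robust quasi-likelihood, group as the only term), with the contrast AgNPs minus Ag+, two-sided, and Benjamini-Hochberg adjustment over 19889 genes. CPM used TMM-scaled library sizes. Each SE was taken as the size of the log2 fold change over the root of its F statistic. Counting intervals (exact binomial, 95%) cover counting error only. Library pairs within groups differed by 8.99 to 64.2 in chi-square per degree of freedom. The script was tested on simulated data.

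The members, the 35 lists (657 of 673 entries kept) and the tests were chosen with earlier results of these data known. Genes named were the 15 largest called changes each way at 1 CPM or more in the higher group, every called list member and 26 fixed genes; the others were named after their values were seen. Alternatives used DESeq2 1.42.0, limma 3.58.1, other scalings, no filter, the 6 libraries alone, a replicate block and leaving out each library.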

Additional observations from a re-analysis of the deposited data

How the results depend on the processing

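All 136 called genes kept their direction in all 17 refits, which their choice from the same libraries largely set in advance. The counts of calls moved with the setting. The values are given as all calls, higher in AgNPs and lower in AgNPs, from 136, 101 and 35. DESeq2 gave 868, 637 and 231, limma voom 47, 32 and 15, and the 6 libraries alone 408, 341 and 67. Fits with a replicate block gave 236, 189 and 47 with 9 libraries and 357, 304 and 53 with 6, sharing 114 and 100 of the 136. The replicate numbers are not said to pair libraries. The deviations of same-numbered Ag+ and AgNPs libraries correlated at -0.09, -0.21 and 0.12. With 3 libraries per group these values cannot show whether libraries were paired. RLE factors gave 128, upper-quartile factors 188 and no filter 164 calls. A fold of at least 2 left 99 calls, 85 higher and 14 lower. Leaving out single libraries gave 0 to 444 calls, 0 to 313 higher and 0 to 131 lower. Called members of all lists, 8 higher and 9 lower, became 43 and 31 with DESeq2, 2 and 6 with voom, 33 and 14 with 6 libraries, 15 and 11 with the replicate block on 9 libraries, 31 and 16 with the block on 6, and 0 to 23 higher and 0 to 20 lower without single libraries. The cause was not tested. The summed root markers were 0.21 higher in AgNPs on the log2 scale, -0.23 without AgNPs 1 and at most 0.43 without another library. Without single libraries, genes with no call changed sign. The log2 fold change ranged from -1.07 to 0.11 for MIR398c, -0.47 to 0.088 for ETR2 (0.0021 without AgNPs 2), -0.0019 to 0.12 for ERS1, -0.0013 to 0.14 for EBF2, -0.81 to 0.0715 for COR15A and -1.67 to 0.48 for NAC6 (0.0617, 0.17 and 0.16 without Ag+ 1, Ag+ 3 and AgNPs 2). Genes with a few counts, such as bHLH39, are limited by depth.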
